A study of Mus musculus with 12 samples.

Results

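The nuclear genes for the subunits of mitochondrial oxidative phosphorylation were examined for contacts with Puf60 and Rbm38, a pair of RNA-binding proteins, in a mouse neuroblastoma line. Members were the protein-coding nuclear genes of mm10 with the symbols of complex I subunits (Ndufa, Ndufb, Ndufc, Ndufs, Ndufv), complex II (Sdha to Sdhd), complex III (Uqcr genes and Cyc1), complex IV (Cox4 to Cox8) and complex V (Atp5 genes). The rule goes by name and uses no measured value, but the set was chosen with earlier results of these data known. There were 88 such genes of 21887: 40 for complex I, 4 for complex II, 9 for complex III, 18 for complex IV and 17 for complex V. The symbols also bring in Ndufa4, now counted as a complex IV protein but grouped here with complex I by its name, and Cox7a2l, a factor that joins respiratory complexes into supercomplexes. The genes are short: the median gene body was 7106.5 nt, against 17238 nt over the other 21799 protein-coding genes.

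The electron transport chain passes electrons from NADH (complex I) and succinate (complex II) to ubiquinone, on to cytochrome c (complex III) and to oxygen (complex IV), and complexes I, III and IV pump protons across the inner mitochondrial membrane. Complex V, the ATP synthase, lets the protons back and makes ATP. A few subunits are encoded in mitochondrial DNA. Most are encoded in the nucleus, transcribed and spliced there as ordinary genes, translated in the cytosol and imported, and many of the nuclear genes have processed pseudogenes. Puf60, a relative of the splicing factor U2af2, acts in 3′ splice site recognition on pyrimidine-rich RNA. Rbm38 has a single RNA recognition motif and is known for contacts with AU-rich and GU-rich elements in the 3′ untranslated regions of mRNAs.

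All 12 libraries came from N2A cells, a mouse neuroblastoma line, that carried a Flag-tagged transgene inserted by the Flp-in system and induced with doxycycline at 1 µg/ml. The transgene encoded Puf60 including exon 5, Puf60 lacking exon 5, or Rbm38, and each had 3 iCLIP libraries (RNA crosslinked to the protein with 150 mJ/cm2 of ultraviolet light at 254 nm and isolated through the Flag tag) and 1 size-matched input, for which lysate kept back before the isolation was run on the same gel. Induction lasted 48 h in the 3 iCLIP libraries of Puf60 with exon 5 and 24 h in all others, the input of that line included, so isoform and induction time cannot be told apart. Every comparison of that form with its input likewise sets RNA after 48 h against RNA after 24 h, as labelled. The endogenous proteins were present in all cells, and the labels do not say whether replicates came from separate cultures.

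For each protein the authors deposited a list of clusters on the genome, each with its log2 fold (CLIP against input), p-value and adjusted p-value. Libraries are not given singly, so depth and replicate spread are unknown, and no difference below was tested across replicates. Intervals are 95% Wilson intervals of counts and cover counting error only; clusters of 1 gene share their source. A cluster is called listed where a table holds it, whatever its fold, and enriched where the authors' adjusted p is under 0.05. The lowest log2 fold of an enriched cluster in the 88 genes was 0.68, 0.54 and 0.45 (Puf60 with exon 5, Puf60 without exon 5, Rbm38), and the highest that was not enriched was 1.19, 1.24 and 1.17, as deposited by the authors. Of 10 neuroblast and neuronal marker genes, 5, 4 and 4 were listed, while 3 of the 10 had no known strand and could not be counted. The 3 heart and skeletal muscle isoform genes (Cox6a2, Cox7a1, Cox8b) and the lung isoform gene Cox4i2 had no cluster in any table, and of the 3 testis isoform genes only Cox7b2 had any.

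Where clusters cover a transcription start, the bases under them can be read from RefSeq's start-site table (GRCm38.p6, the same build). They are shown for 4 genes to set a start that was enriched for Puf60 with exon 5 and Rbm38 (Ndufa4) and one enriched for Rbm38 (Cox6a1) beside ones that were listed but not enriched (Atp5b, Cox7c); the 4 were chosen after their values were seen. Each line gives bases 21 to 50 of the transcript, 5′ to 3′, all of them inside a cluster, with GTGTG in capitals.
Ndufa4, chr6:11907401-11907430, minus strand: tgcagaagcggcttagcGTGTGtcctaatc
Cox6a1, chr5:115348909-115348938, minus strand: gcggtgctgtcagcgtctcgggtctctcgg
Atp5b, chr10:128083327-128083356, plus strand: atgttgagtcttgtggggcGTGTGgcctcg
Cox7c, chr13:86046746-86046775, minus strand: cgctctgccgagcaaggtcgtgtagaaagg
At the Ndufa4 start the log2 fold was 0.86 with exon 5 (enriched), -0.0034 without it (not enriched) and 0.50 for Rbm38 (enriched) in the authors' deposited tables. At the Cox6a1 start it was -0.50 with exon 5 and 2.64 for Rbm38, the latter enriched, per the authors' deposited tables. The Atp5b start stood at -0.86, -1.84 and 0.19 and the Cox7c start at -1.13 with exon 5 and -1.27 without it, all not enriched in the authors' deposited tables. GTGTG, searched on the transcribed strand, stood in these 30 bases of Ndufa4 and Atp5b. It was in 3 of the 11 member starts whose 30 bases lie inside a cluster, in 7 of the 75 member starts (9.33%) and in 3.66% of the 32851 RefSeq start sites. TTTTT was in 1 of those 11 (Cox7b, not enriched), in 2 of the 75 (2.67%) and in 2.15% of all start sites. These counts are too few to compare enriched starts with the others. Sequences of clusters elsewhere in the genes were not read here.

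Most of the genes were listed. At least 1 table listed 74 of the 88 genes and all 3 tables listed 50, while 14 were in none, among them Ndufa3, Ndufa10, Ndufs6, Ndufs8 and Uqcr11. Puf60 with exon 5 listed 62 genes, Puf60 without exon 5 listed 69 and Rbm38 listed 56. The other protein-coding genes were listed at shares of 24.3%, 25.0% and 28.0%, against 70.5%, 78.4% and 63.6% of the members. A gene with no known strand could not be listed but stays in these shares: 5 of the 88 members and 3490 of all 21887 genes. For 13 members and 905 of all genes the strand was itself inferred from clusters, so the shares depend in part on that rule. How much RNA each gene makes is not in the files, and its part in being listed was not tested.

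For Puf60, few of the listed clusters were enriched. The table of Puf60 with exon 5 held 228 clusters in these genes, of which 44 were enriched (19.3%, 14.7 to 24.9), against 39.6% of the 27202 clusters in other protein-coding genes and 39.1% of the whole table. Without exon 5 there were 269 clusters with 37 enriched (13.8%, 10.1 to 18.4), against 36.6% in other protein-coding genes and 36.1% of the whole table. The median log2 fold of the member clusters was -0.45 with exon 5 and -0.40 without, and 0.26 and 0.14 in the other genes, from the authors' deposited tables. In other protein-coding genes of at most 10000 nt, 38.1% of 3291 and 35.4% of 3634 clusters were enriched. Members of that length had 15.8% of 146 and 15.0% of 173. Any part of gene length or of RNA amount in these shares was not tested.

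For Rbm38 the share was close to that of the rest of the table. Of 182 clusters, 96 were enriched (52.7%, 45.5 to 59.9), against 52.0% of the 38693 clusters in other protein-coding genes and 50.9% of the whole table. Their median log2 fold was 0.71, below the 1.14 of the other genes, in the authors' deposited table. Among other genes of at most 10000 nt, 58.8% of 3729 clusters were enriched, and among members of that length 51.7% of 120.

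Counted by gene, 24 of 62 listed members had an enriched cluster for Puf60 with exon 5 (38.7%, 27.6 to 51.2), where 64.8% of the other listed protein-coding genes did. Without exon 5 it was 24 of 69 (34.8%, 24.6 to 46.6), where 63.2% of the others did. Rbm38 had an enriched cluster in 47 of 56 (83.9%, 72.2 to 91.3), where 84.0% of the others did. Of the 74 members listed anywhere, 22 were enriched for Rbm38 only, 5 for a Puf60 form only, 25 for both Rbm38 and a Puf60 form, and 22 in no table. As shares these were 29.7%, 6.76%, 33.8% and 29.7%, and in the 7315 other protein-coding genes listed anywhere they were 31.1%, 16.1%, 38.8% and 13.9%. The share enriched for Rbm38 only was thus near that of other genes. Of the 22 members enriched in no table, all but Uqcrc1, Atp5d, Atp5j and Atp5k are complex I genes. Complex I makes up 40 of the 88 members. Its listed genes held a median of 2, 2 and 1 clusters, against 3, 3 and 2 over all listed members (Puf60 with exon 5, without, Rbm38). The other listed protein-coding genes held a median of 2 in each table. Of the listed complex I genes, 28.6%, 13.3% and 68.4% had an enriched cluster, against 64.8%, 63.2% and 84.0% of those other genes. The part of cluster number was not tested.

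**Figure D1:**
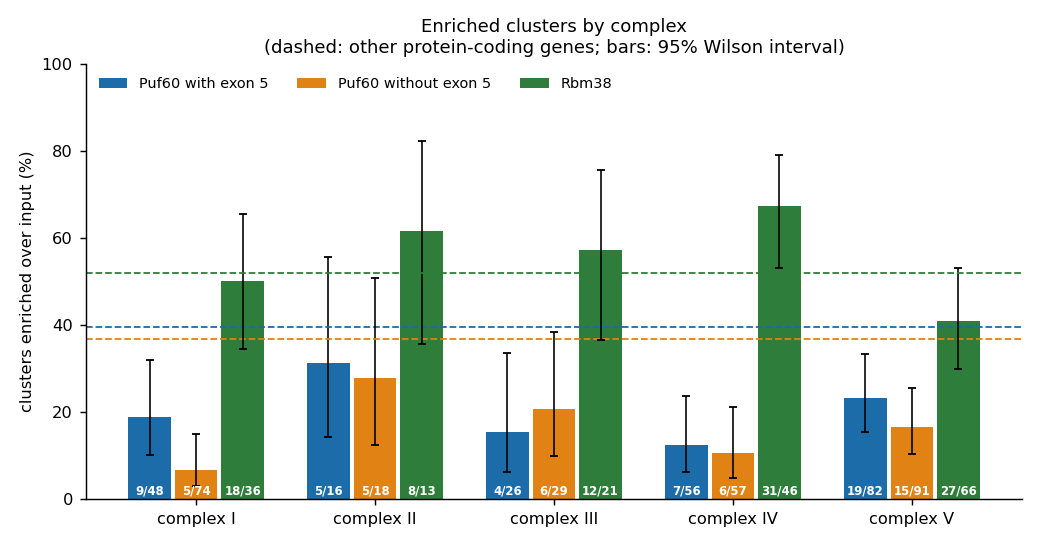
Percent of listed clusters that were enriched over input (bars, with enriched over listed counts at the foot) by complex and protein, with 95% Wilson intervals; dashed lines give the share in other protein-coding genes. Every Puf60 bar lies below its dashed line, from 6.76% (complex I, without exon 5) to 31.3% (complex II, with exon 5), and the Rbm38 bars lie between 40.9% (complex V) and 67.4% (complex IV).

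By complex, the Puf60 shares with exon 5 were 9 of 48 clusters in complex I, 5 of 16 in complex II, 4 of 26 in complex III, 7 of 56 in complex IV and 19 of 82 in complex V. Without exon 5 they were 5 of 74, 5 of 18, 6 of 29, 6 of 57 and 15 of 91 in the same order. All 10 enriched clusters of complex II over both forms of Puf60 but 1 were in Sdhb, so that complex's share rests on 1 gene. The intervals for complex II, and for complex III without exon 5, reach the share of the other protein-coding genes. Rbm38 had 18 of 36, 8 of 13, 12 of 21, 31 of 46 and 27 of 66. The complex IV share for Rbm38 leans on Cox7a2, a complex IV subunit whose annotated body runs into Tmem30a (chromosome 9, 79768941 to 79793430) on the same strand. Of its Rbm38 clusters, 8 of 9 lie in the stretch that both genes hold, all enriched, and cannot be assigned to either. Without Cox7a2 the complex IV count for Rbm38 was 22 of 37 (59.5%), and the whole set had 87 of 173 (50.3%). For Puf60 the complex IV counts without Cox7a2 were 4 of 43 (with exon 5) and 6 of 44 (without exon 5).

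Core subunits of complex I carry its flavin and iron-sulfur centres. Among them Ndufs1, which holds several of these centres (chromosome 1, 63143592 to 63176822, overlapped on the opposite strand by Ino80dos), was enriched in all 3 tables. Its cluster at 63155986 to 63156035, 12418 nt from the gene's 3′ end, had log2 folds of 3.70 with exon 5 and 3.47 without it per the authors' deposited tables. A further cluster with exon 5 stood at 2.52, and Rbm38 had 2.34 at 63156386 to 63156435 and 4.22 at the 3′ end, all enriched in the authors' deposited tables. Ndufv1, which binds the flavin, was enriched for Rbm38 only, with a highest log2 fold of 2.41 per the authors' deposited table. Ndufs7 was enriched only for Rbm38 as well, at 2.79, while Ndufs3 and Ndufv2 were listed without an enriched cluster and Ndufs8 was not listed.

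The lowest Puf60 values of the whole set belonged to a cluster in Ndufs7 that covers the tRNA gene n-TNgtt7 (chromosome 10, 80249151 to 80249250). It had log2 folds of -3.47 with exon 5, -3.44 without and -1.03 for Rbm38 per the authors' deposited tables. Reads of the tRNA and of Ndufs7 cannot be told apart there.

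Among the accessory subunits of complex I, Ndufs4, which is needed for a stable complex and has a body of 100300 nt, was enriched in all 3 tables. With exon 5 its clusters at 114307736 to 114307785 and 114288836 to 114288885 on chromosome 13 had log2 folds of 3.05 and 2.74, the authors' deposited table shows. Without exon 5, a cluster that adjoins the first of these without overlapping it (114307786 to 114307885) had 1.62, and a longer one that overlaps the second (114288736 to 114288885) had 0.81, both enriched in the authors' deposited table. For Rbm38 the enriched cluster, at 114288686 to 114288785, overlapped that longer one and had 3.82 in the authors' deposited table. Ndufa7 was enriched without exon 5 at 3.18 (chromosome 17, 33825551 to 33825600), a position with no cluster in the other tables, and for Rbm38 at 4.34 at its 3′ end, as deposited by the authors. Ndufc2, a membrane-arm subunit, had 4.94 for Rbm38 at 97407651 to 97407800 on chromosome 7, with its centre 75 nt from the 3′ end, in the authors' deposited table. Both Puf60 tables listed the same end, at -1.21 and -0.0025, not enriched in the authors' deposited tables.

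In complex II, Sdhb, the iron-sulfur subunit of succinate dehydrogenase (chromosome 4, 140961271 to 140979198), had the most enriched Puf60 clusters of any member, 5 of 11 with exon 5 and 4 of 10 without. In 5′ to 3′ order the enriched ones with exon 5 stood at log2 folds of 3.36, 2.89, 0.90, 2.54 and 3.64 per the authors' deposited table. The 4 without exon 5 stood at 2.78, 0.66, 2.03 and 1.90 in the authors' deposited table. All lay inside the gene, the nearest 3073 nt from its 3′ end. Rbm38 had 2 enriched clusters of 7 in Sdhb, near the start (1.49) and at the 3′ end (2.37), and neither overlapped an enriched Puf60 cluster, in the authors' deposited tables.

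Sdha, the flavoprotein, was enriched for Rbm38 only (2.84, authors' deposited table), as was Sdhd, a membrane anchor, with 2 clusters at 3.05 and 3.49 in the authors' deposited table. Sdhc, the other anchor, had 3 Rbm38 clusters, all enriched, at 1.70, 4.05 and 2.74 toward the 3′ end, and 1 cluster of 0.85 without exon 5 in the authors' deposited tables. At the Sdhc end the Puf60 clusters were below 0, at -1.15 with exon 5 and -1.05 without it in the authors' deposited tables.

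In complex III, Cyc1, cytochrome c1 (chromosome 15, 76343513 to 76346260), was covered along its short body by 10, 8 and 10 clusters and was enriched in all 3 tables. The strongest with exon 5 was at 76345601 to 76345650, with a log2 fold of 3.16 per the authors' deposited table. The nearest cluster without exon 5, at 76345651 to 76345700, had 0.35 and was not enriched, while Rbm38 at those bases had 1.54 and was enriched, in the authors' deposited tables. Uqcrq, a small subunit, was enriched in all 3 tables at 1 position near the middle of its body, with 1.22, 0.58 and 0.97 in the authors' deposited tables. Uqcrh, the hinge protein, was enriched without exon 5 at 3.34 and 0.96 (chromosome 4, 116070086 to 116070135 and 116069986 to 116070035), where the table with exon 5 listed no cluster, as deposited by the authors. Uqcrfs1, the Rieske iron-sulfur protein, had a single Rbm38 cluster of 300 nt near its 3′ end, at 30540486 to 30540785 on chromosome 13, with 4.77 in the authors' deposited table.

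In complex IV, Cox4i1 (chromosome 8, 120668225 to 120674209) had 1 enriched Puf60 cluster of 7 in either table, at the same 50 nt (120670101 to 120670150), with log2 folds of 3.19 and 3.12 per the authors' deposited tables. Rbm38 had no cluster there but was enriched in 5 of its 6 Cox4i1 clusters, from 0.85 to 1.97 in the authors' deposited table. Cox7c showed the same division, with a shared Puf60 cluster at 2.42 and 1.91 in the middle of the gene and an Rbm38 cluster at 2.96 at its 3′ end, in the authors' deposited tables. Overlapping the snoRNA gene Gm22574, Cox7c had clusters at -2.52, -2.55 and -2.19, not enriched in any of the authors' deposited tables. Cox6b1 was enriched in all 3 tables too, at 0.83 with exon 5, 1.52 without it and up to 2.21 for Rbm38, and the enriched positions of the Puf60 forms differed, in the authors' deposited tables.

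Several complex IV genes had their highest Rbm38 fold at the 3′ end. Cox5a had 4.85 at 57532301 to 57532400 on chromosome 9 and Cox6c had 4.63 at 35931986 to 35932135 on chromosome 15, the authors' deposited table shows. For Cox7a2l all 6 Rbm38 clusters were enriched, from 2.37 to 4.57, the farthest 643 nt from the 3′ end, as deposited by the authors. All Puf60 clusters of Cox7a2l were below 0, from -1.96 to -0.78 with exon 5 and from -2.38 to -1.64 without it, in the authors' deposited tables. The cluster of highest fold in Cox7a2, at 5.00 (chromosome 9, 79770636 to 79771035), is in the stretch shared with Tmem30a, and the only Rbm38 cluster in Cox7a2 outside it had 2.58 in the authors' deposited table. Cox7b2, a testis isoform, had 1 enriched cluster, at 3.36 with exon 5, deep in a body of 105383 nt, and its 3 clusters in each of the other tables were not enriched, per the authors' deposited tables.

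**Figure D2:**
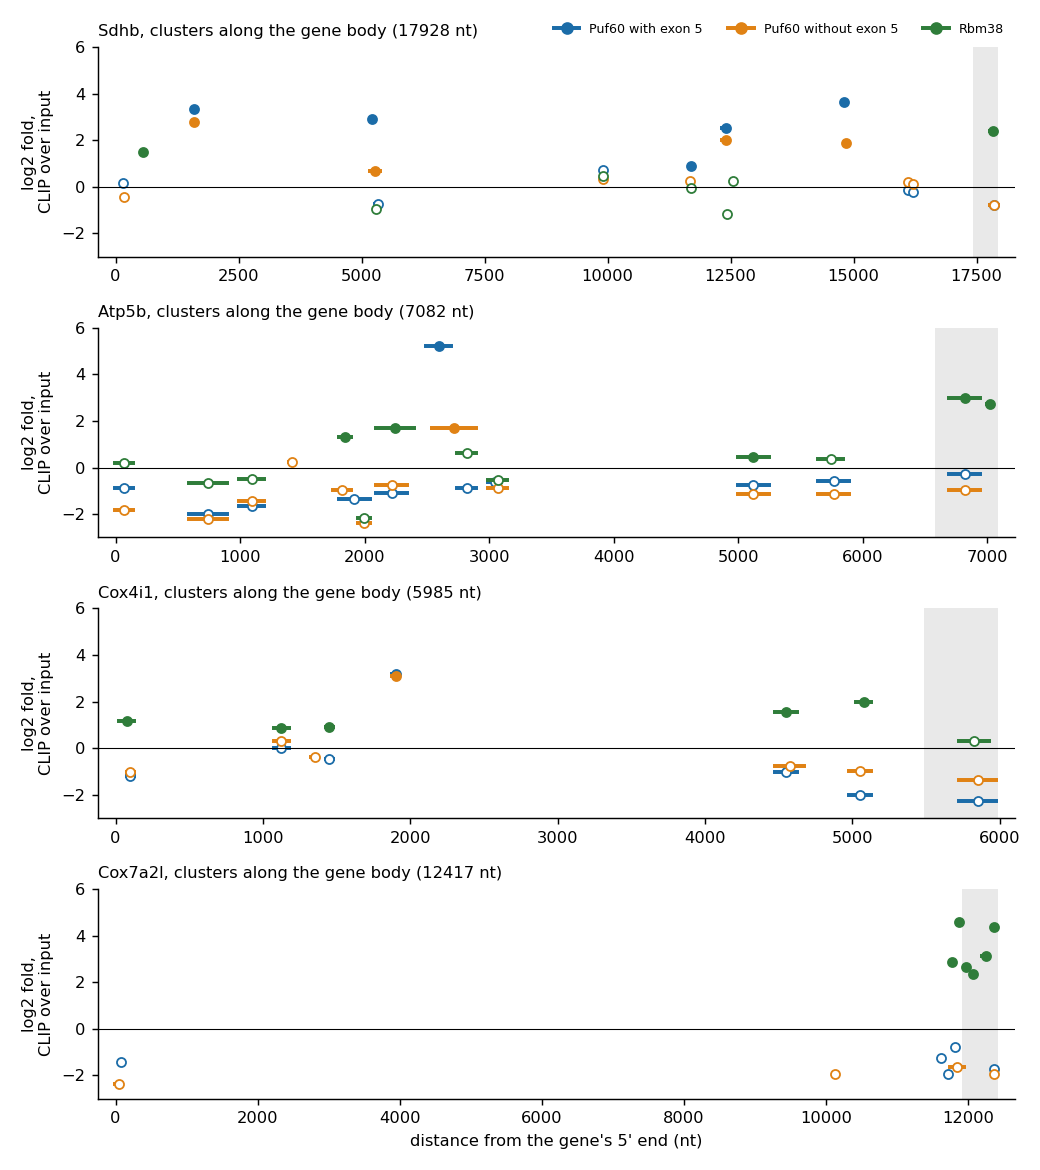
Log2 fold of CLIP over input for every listed cluster of Sdhb, Atp5b, Cox4i1 and Cox7a2l against the distance from the gene's 5′ end in nt; bars span the cluster, filled points are enriched, open points are not, and the shaded band is the last 500 nt. The filled Puf60 points lie inside the gene bodies of Sdhb, Atp5b and Cox4i1, and the Rbm38 points of Cox7a2l, from 2.37 to 4.57, crowd at its 3′ end.

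Complex V had the most members enriched in all 3 tables, 8 of 17, among 16 in the whole set (21.6% of the 74 listed members, where 29.1% of other listed protein-coding genes were). Listed complex V genes also held more clusters, a median of 4, 4.5 and 4 against 3, 3 and 2 over all listed members. The part of cluster number was not tested. The 8 were Atp5a1, Atp5b and Atp5c1 of the catalytic head and central stalk, Atp5g1, Atp5g2 and Atp5g3, which encode the same mature c subunit of the membrane ring, Atp5pb of the peripheral stalk, and Atp5j2 of the membrane part. The other 8 were Ndufs1, Ndufs4, Sdhb, Cyc1, Uqcrq, Cox4i1, Cox6b1 and Cox7c. Atp5h, Atp5mpl, Ndufa12, Ndufc1 and Cox7b2 were the 5 enriched for a Puf60 form and not for Rbm38.

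Atp5b, the catalytic beta subunit (chromosome 10, 128083307 to 128090388), held the highest Puf60 value of all members. With exon 5, the cluster at 128085801 to 128086000 had a log2 fold of 5.22 with an adjusted p of 2.67e-285 per the authors' deposited table. The overlapping cluster without exon 5 was longer (128085851 to 128086200) and had 1.68, also enriched. The table with exon 5 gives the second stretch of it as a cluster of its own, at 128086051 to 128086200 and -0.87, so the boundaries of the 2 deposited clusters differ. The other 10 clusters of Atp5b with exon 5 and the other 11 without it were not enriched, all but 1 below 0, in the authors' deposited tables. For Rbm38, 5 of 12 clusters were enriched, the highest at the 3′ end (2.99 and 2.73, authors' deposited table).

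The reference used gives no exons, so whether the strongest Puf60 cluster is in an intron was not examined, but it does place 2 small RNA genes inside the Atp5b body. Snord59a lies under clusters at -2.00, -2.20 and -0.67, and Mir677 under clusters at -1.35, -2.39 and -2.17 (with exon 5, without, Rbm38), none enriched in the authors' deposited tables. The mature miRNAs of Mir677 are printed because the clusters cover the first of them whole and the second in part, and the capitals mark the seed, bases 2 to 8.
mmu-miR-677-5p, chr10:128085291-128085312: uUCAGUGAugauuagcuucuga
mmu-miR-677-3p, chr10:128085335-128085360: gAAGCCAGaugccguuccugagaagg
Reads of the small RNAs and of Atp5b cannot be told apart at these positions.

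All 3 c-ring genes had enriched Puf60 clusters in both tables. Atp5g1 had 3.66 with exon 5 and 3.98 without at the same 50 nt (chromosome 11, 96075036 to 96075085), where Rbm38 listed no cluster, in the authors' deposited tables. Atp5g2 had 4 of 5 clusters enriched with exon 5 (1.69, 1.28, 2.02 and 1.89) and 3 of 5 without it (2.30, 2.22 and 3.37) in the authors' deposited tables. The last of them, at 102663136 to 102663185 on chromosome 15, lies 292 nt from the 3′ end. Atp5g3 had 1 enriched cluster with exon 5 (1.44) and 3 without it (1.75, 2.69 and 0.91), and 4 for Rbm38 (1.30, 1.41, 2.35 and 4.68) in the authors' deposited tables. At the site of 0.91 (73909886 to 73909985) the value with exon 5 was higher, at 1.19. It counted as not enriched by the authors' adjusted p, though their unadjusted p-value was under 0.05. The c-ring genes encode the same mature protein and have pseudogenes, and how reads with several matches were counted is not given in the sources used here.

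Atp5c1, the gamma subunit that turns inside the head, had 4 of 10 clusters enriched with exon 5, at 0.80, 1.34, 3.06 and 0.78 in the authors' deposited table. It had 1 of 10 enriched without exon 5 (0.65) and 2 of 7 for Rbm38 (1.14 and 2.21), in the authors' deposited tables. Atp5a1, the alpha subunit, was covered by 15, 14 and 12 clusters. In it Puf60 had 1 enriched cluster in either table (1.01 and 1.51), while Rbm38 had 6, the highest at 4.34 and 3.80 next to the 3′ end, in the authors' deposited tables. Atp5pb had 3 enriched clusters with exon 5 (1.23, 1.20 and 1.37), 1 without (0.54) and 3 for Rbm38, and Atp5j2 had 1, 3 and 1, per the authors' deposited tables. The 5 F1 genes, those of the head and central stalk, had 6 of 42, 3 of 43 and 14 of 36 clusters enriched. Of these 5, Atp5d was enriched in no table and Atp5e for Rbm38 only.

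Atp5l, the g subunit, had the highest Rbm38 value of all members, 5.44 at 44913286 to 44913385 on chromosome 9, with its centre 87 nt from the 3′ end, in the authors' deposited table. The same 100 nt was listed in both Puf60 tables, at -1.45 and -2.17, not enriched, in the authors' deposited tables. The positions were identical and the sign of the log2 fold was opposite.

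In the last 500 nt of the gene bodies, 43 of 53 Rbm38 clusters were enriched (81.1%, 68.6 to 89.4), with a median log2 fold of 2.73 per the authors' deposited table. In the same window 6 of 59 clusters were enriched for Puf60 with exon 5 (10.2%, 4.74 to 20.5; median -0.77) and 3 of 72 without exon 5 (4.17%, 1.43 to 11.5; median -0.81), in the authors' deposited tables. These member counts cover genes of all lengths, and 64 of the 88 members have at most 10000 nt. In other protein-coding genes of at most 10000 nt the shares were 82.3% of 1116, 20.5% of 821 and 16.8% of 945. The Rbm38 share of members was close to that, and the Puf60 share without exon 5 was lower. With exon 5 the Puf60 interval reached that of these other genes (17.8 to 23.4). In other protein-coding genes of any length the shares were 90.5% of 4279 (89.6 to 91.4), 18.4% of 2361 and 13.8% of 2937. Against these the Rbm38 share of members was lower, with intervals apart, as was the Puf60 share without exon 5 (12.6 to 15.1 in the other genes). With exon 5 the intervals overlapped (16.9 to 20.0 in the other genes).

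Of 37 members with a cluster in the last 500 nt in all 3 tables, Rbm38 had the highest log2 fold in 36. The exception was Atp5g2, with 1.89, 3.37 and 1.24 in the authors' deposited tables. In 24 of the 37, Rbm38 was enriched and both Puf60 values were below 0, a count not given here for other genes. Counting members with a cluster there in any table, there were 62. In the other protein-coding genes with a cluster there in all 3 tables, Rbm38 was highest in 88.3% of 1163. Rbm38 was enriched in all but 3 of the 37 members (Ndufb7, Cox4i1 and Atp5d). The share of those 1163 other genes in which Rbm38 was enriched was close to that of the 37, so this count does not set the members apart. Where single clusters matched by position, the median log2 fold was -0.79 with exon 5 and 2.85 for Rbm38 over 38 pairs in that window, from the authors' deposited tables. It was -0.84 without exon 5 and 2.74 for Rbm38 over 37 pairs in the authors' deposited tables.

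**Figure D3:**
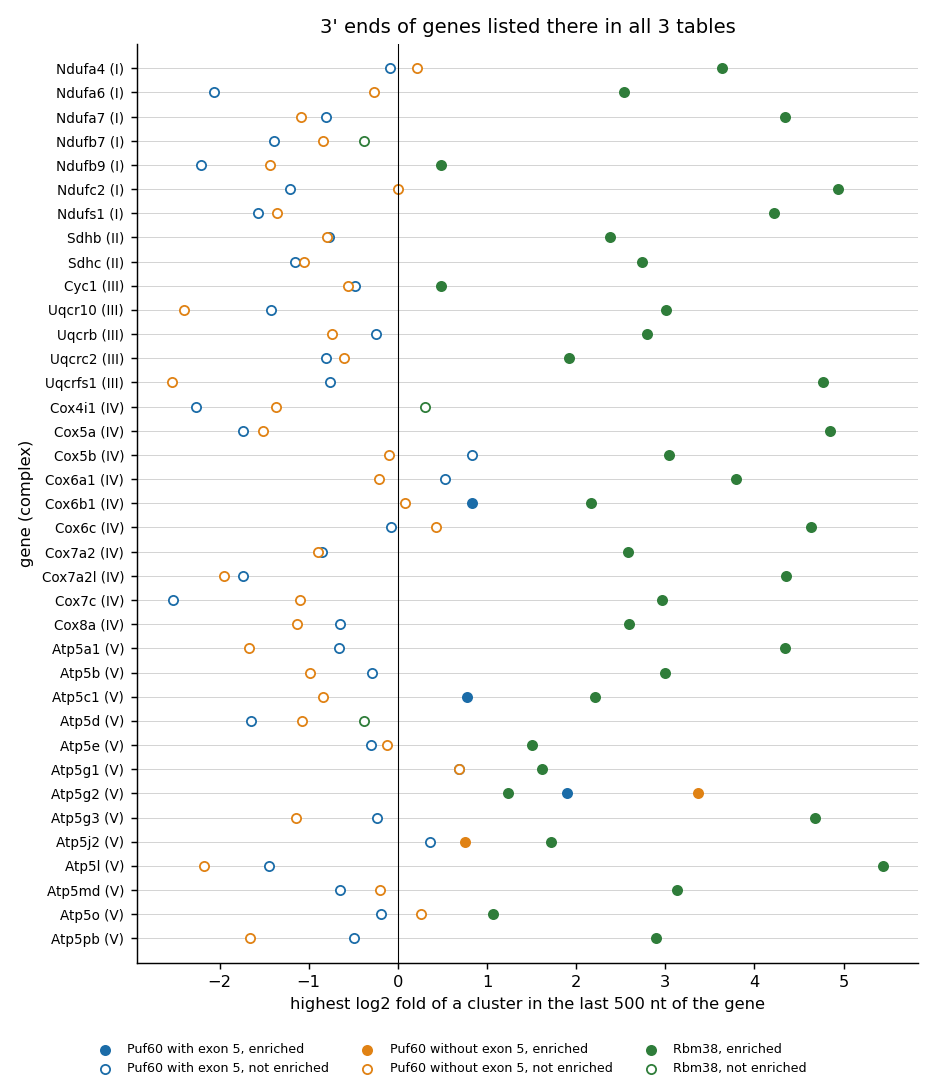
Highest log2 fold of CLIP over input in the last 500 nt of the gene body, for the 37 genes with a cluster there in all 3 tables (complex in brackets); filled points are enriched. The Rbm38 point is farthest to the right in 36 genes, Atp5g2 being the exception, and most Puf60 points lie at or left of 0.

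At the 5′ ends fewer clusters were enriched. In the first 500 nt, 2 of 31 clusters were enriched with exon 5, 0 of 35 without it (which allows up to 9.89%) and 6 of 17 for Rbm38. The medians were -0.68, -0.74 and 0.26 in the authors' deposited tables. In other protein-coding genes of at most 10000 nt the first 500 nt had 27.6%, 27.8% and 29.7% enriched. Between the ends, 36 of 138 (26.1%), 34 of 162 (21.0%) and 47 of 112 (42.0%) member clusters were enriched, against 46.4%, 44.0% and 51.1% in the other short genes. The Rbm38 count of the first 500 nt includes the enriched Cox7a2 cluster at 79771086 to 79771285 (2.85), in the stretch shared with Tmem30a. Other Cox7a2 clusters of that stretch are in the Rbm38 count between the ends. The member shares are those of genes of all lengths. For Puf60 they were below those of the other short genes in each of the 3 stretches, with intervals apart everywhere but in the last 500 nt with exon 5.

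Measured from the 3′ end, 66 of 96 enriched Rbm38 clusters (68.8%, 58.9 to 77.1) lay within 2000 nt, against 29 of 86 that were not enriched (33.7%, 24.6 to 44.2). Without Cox7a2 it was 65 of 87 (74.7%). For Puf60 the order was the other way round. With exon 5, 16 of 44 enriched clusters (36.4%, 23.8 to 51.1) and 102 of 184 others (55.4%, 48.2 to 62.4) lay within 2000 nt. Without exon 5 it was 15 of 37 (40.5%, 26.3 to 56.5) and 114 of 232 (49.1%, 42.8 to 55.5), and in both forms the intervals overlap. The member shares cover genes of all lengths. In other protein-coding genes of at most 10000 nt the Rbm38 shares were 76.6% and 45.4%, and the Puf60 shares were 47.7% and 65.4% with exon 5 and 48.5% and 67.1% without it. In other protein-coding genes of any length the Rbm38 shares were 43.1% and 10.1%. The Puf60 shares there were 15.1% and 29.5% with exon 5 and 15.2% and 34.2% without it.

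**Figure D4:**
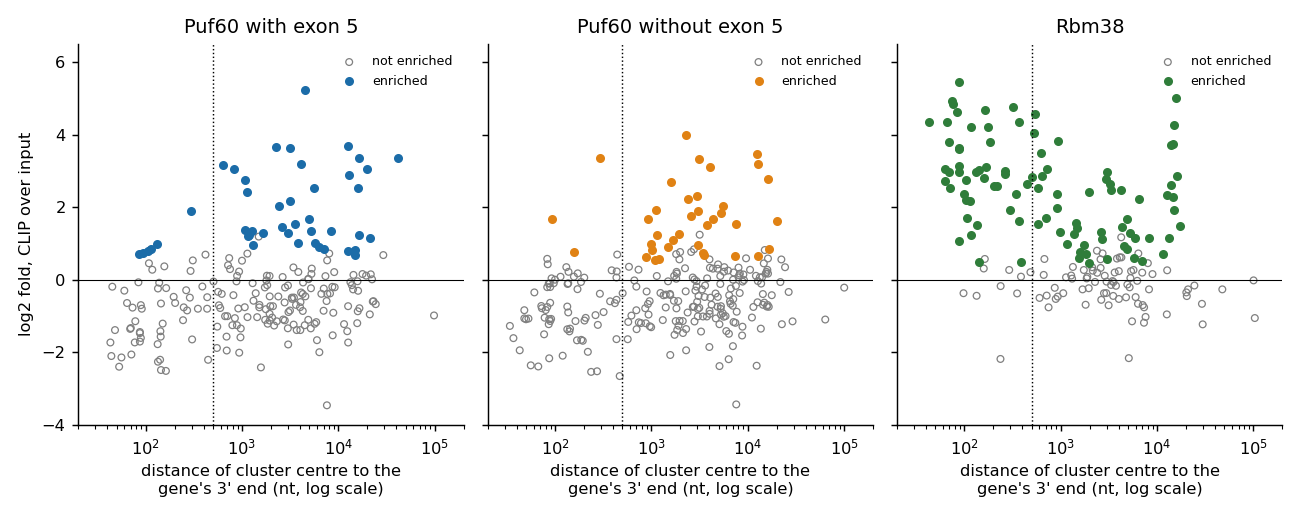
Log2 fold of CLIP over input of each member cluster against the distance of its centre to the gene's 3′ end (nt, log axis), 1 panel per protein; filled points are enriched and the dotted line is 500 nt. Left of the line 43 of 53 Rbm38 clusters are filled, against 6 of 59 and 3 of 72 for Puf60; the Rbm38 points between 13794 and 15944 nt are those of Cox7a2 in the stretch shared with Tmem30a.

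The Puf60 forms were then set side by side. With exon 5 there were 44 enriched clusters; 19 of them (43.2%) lay over an enriched one of the form without it, and 15 more (34.1%) over one that was listed but not enriched. Of the 37 enriched without exon 5, 19 (51.4%) overlapped an enriched one with it. In other protein-coding genes the shares were 62.1% and 61.1%. With enriched Rbm38 clusters the overlap was 8 of 44 (18.2%) and 5 of 37 (13.5%), and 21.0% and 18.9% in other protein-coding genes.

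Clusters that were each other's largest overlap gave 167 pairs in 53 genes. The log2 fold with exon 5 minus that without had a median of -0.0027 (quartiles -0.42 and 0.52), and 83 of 167 were higher with exon 5. Over all 20187 pairs of the tables the median was 0.10. In 14 pairs the value with exon 5 was higher by more than 1 (8.38%, where 9.63% of all pairs were) and in 14 it was lower by more than 1 (8.38%, where 5.69% were). Pearson's r across the member pairs was 0.81 and across all pairs 0.94; pairs of 1 gene share their libraries, and the isoform tables differ in induction time.

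Among pairs enriched in at least 1 table, the widest difference was that of Atp5b (5.22 with exon 5, 1.68 without), where the cluster boundaries differ. Ndufs4 (2.74 and 0.81), Atp5g1 (1.35 and -0.37, chromosome 11 near 96074036), Atp5c1 (0.78 and -0.84 at its 3′ end) and Ndufb8 (1.35 and -0.12) followed in the authors' deposited tables. In the other direction Ndufc1, a small complex I subunit, had -0.94 with exon 5 and 1.27 without at the same 50 nt (chromosome 3, 51407386 to 51407435) in the authors' deposited tables. Atp5g2 (1.89 and 3.37, then 1.28 and 2.30 at another site), Atp5j2 (0.22 and 1.66) and Sdhb (-0.73 and 0.66) came next in the authors' deposited tables. The deposited boundaries are unequal in the pairs of Ndufs4, Atp5g1, Atp5c1 and Sdhb too, and in Sdhb 2 clusters with exon 5, of 2.89 and -0.73, stand where the table without exon 5 has 1. They are equal in the pairs of Ndufb8, Ndufc1, Atp5g2 and Atp5j2. Without values per library, whether any of these differences exceeds the replicate spread was not tested.

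**Figure D5:**
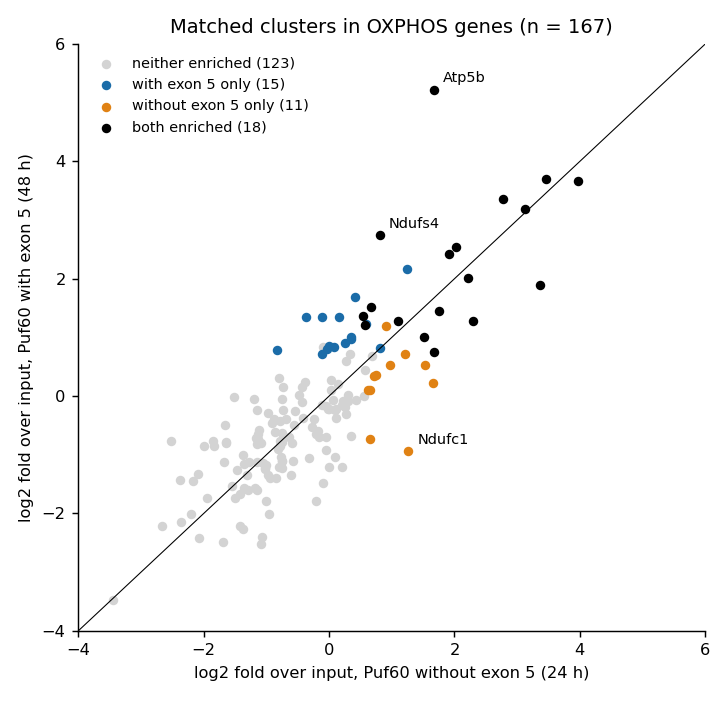
Log2 fold over input of the 167 matched clusters, Puf60 without exon 5 on the x axis and with exon 5 on the y axis, coloured by where the cluster was enriched; the line marks equal values. Pairs enriched in both tables (18) lie around the line up to 3.98, with Atp5b (5.22 against 1.68) above it, and Ndufc1 lies below it.

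Genes that serve the same complexes without being part of them were counted for comparison. Of 48 assembly factors, which build the complexes and insert their cofactors, 12, 15 and 15 were listed, with 9 of 15, 7 of 27 and 16 of 23 clusters enriched (Puf60 with exon 5, without, Rbm38). As shares these were 60%, 25.9% and 69.6%. In protein-coding genes other than the members 39.6%, 36.6% and 52.0% of clusters were enriched. No strand was known for 6 of the 48, which could not be listed. Tmem126b, a complex I assembly factor, had log2 folds of 5.56 and 5.57 in the Puf60 tables at the same 50 nt and -0.36 for Rbm38 per the authors' deposited tables. Ttc19, of complex III, had 4.42 and 4.97 in the Puf60 tables, and Coa5, of complex IV, had all 5 Rbm38 clusters enriched, up to 5.55, per the authors' deposited tables. These 3 were picked from the list after their values were seen. Of 12 regulators of mitochondrial gene expression, 1 had no known strand and 6, 8 and 6 were listed. Of these, 5, 4 and 4 genes had an enriched cluster, with 6 of 11, 5 of 16 and 12 of 15 clusters (54.5%, 31.25% and 80%). Cycs, cytochrome c, had 1 of 4, 1 of 4 and 2 of 2.

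The mitochondrial genome as a whole gave no enriched cluster: 0 of 19, 0 of 24 and 0 of 26 clusters passed, with median log2 folds of -2.49, -2.58 and -1.08 per the authors' deposited tables. These clusters were up to 8500, 8550 and 8450 nt wide and were not assigned to genes. The subunits encoded there were therefore not counted on their own. The highest single value was 0.05, for Rbm38, in the authors' deposited table. Pseudogenes named like members held 8, 10 and 8 clusters in 5 of 18 genes, with 0, 2 and 4 enriched, and reads of a member and its pseudogene may have been split between them.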

How the data were processed

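The processed values are the authors' own, 1 cluster table per protein with 0 columns per library, so depth is unknown and no test across replicates was made; the authors' comparison is described instead. Per the labels' protocols, Flag-tagged proteins were isolated after partial RNase digestion and size selection, beside a size-matched input. TopHat, edgeR and the builds NCBIM37 and mm10 appear in the submitters' processing notes, with neither versions nor roles. Not given in the sources used here are the way clusters were called, any collapsing of reads by the primers' random bases, and how input and replicates were compared.

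The log2 fold that the authors deposited was taken as CLIP over input; the header states no direction. Its p-value follows, then the adjusted one, per the file headers. No member cluster below 0 had a p-value under 0.5, so the p-value reads as one-sided, and the adjusted p was 1 for 9, 10 and 12 member clusters whose p-value was under 0.05. A missing p-value (1, 2 and 3 member clusters) counted as not enriched.

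A cluster was given to a member when its centre lay in the gene body (RefSeq, GRCm38.p6) and on its strand. Starts fall on a 50 nt grid with an offset of 0, read as plus, or 35, read as minus, so the strand is inferred. The gene's strand came from RefSeq's start-site table (70 members) or from the offsets of at least 3 clusters with 80% alike (13); 5 had neither. Where members had both, 47 of 47 agreed. Coordinates are 1-based. Python 3.11.15 and pandas 2.3.3 were used, and the scripts were tested on simulated data.

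The members and lists were chosen with earlier results of these data known. Genes named are, per table, the 8 enriched clusters of highest log2 fold (1 per gene) and the 3 members with most enriched clusters; members enriched in all 3 tables; the 5 widest isoform differences each way among pairs enriched in at least 1 table; and core subunits, of which a result is not reported here. Further genes are named where a small count or an exception called for it. Alternatives covered the threshold, the adjustment, strand, overlap, gene length and the distance to the 3′ end; leaving out Cox7a2 was added after the data were seen.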

Additional observations from a re-analysis of the deposited data

Results flagged for a closer look

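A cluster on the strand opposite to Cox7a2, left out of all counts above, had a log2 fold of 5.14 for Rbm38 in the authors' deposited table (chromosome 9, 79758351 to 79758400). It stands out because it lies outside the main measurement and is enriched over input. The same 50 nt were at 0.21 with exon 5 and -0.31 without it, not enriched in the authors' deposited tables. The pseudogene Gm51685 holds it on the plus strand. The source of the reads was not tested.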

How the results depend on the processing

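Of 69 alternative values for 13 results, 54 stayed within 1.5 times the count or within the interval or spread of the reported value, and 15 did not. For Puf60 without exon 5, requiring a log2 fold above 1 left 24 enriched clusters of 37. With a window of 1000 nt the share of enriched clusters near the 3′ end was 18.2%, 16.2% and 58.3% (Puf60 with exon 5, without, Rbm38), and with 500 nt 13.6%, 8.11% and 44.8%, since the window is narrower. In gene bodies over 5000 nt it was 23.5% and 23.1% for the Puf60 forms, in the last 20% of the body 24.3% without exon 5, and with 1 cluster per gene 87.2% for Rbm38. Counting all listed clusters, the overlap was 75.9% (Puf60 forms), 56.1% and 49.1% (with and without exon 5 against Rbm38), and at 50% of both clusters 5.41% without exon 5 against Rbm38. The median isoform difference, -0.0027 in all pairs, was 0.40 in the 44 pairs enriched in at least 1 table. The cause of these changes was not tested. No paired analysis was possible because the tables hold no values per library; leaving out libraries, and the search for motifs inside clusters, which needs a genome, were not run either. Read depth per cluster is unknown, so what it limits cannot be stated.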
